A study of Mus musculus with 10 samples.

Results

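The T cell receptor beta chain repertoire was described through its V and J gene segments. Every distinct V and J label of a productive beta chain (TRB) contig, an assembled receptor transcript of 1 cell, was taken from the receptor tables of 5 mouse livers. This gave 34 segment labels, 22 V and 12 J, among the 32285 genes of the expression matrices. They come from 6463 productive TRB contigs and 3636 distinct clonotypes, a clonotype being a unique combination of V label, J label and CDR3 nucleotide sequence. All 34 labels occurred in Control liver 11, IFNa liver 23 and IFNa + aCTLA4 liver 22, 33 in IFNa liver 18 and 32 in Control liver 25.

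The samples were livers that carried metastases of colorectal cancer (CRC) origin, dissociated and sorted as single living cells by exclusion of the dye 7AAD, with no antibody staining. Control mice received a control LV (lentiviral vector; livers 11 and 25), IFNa mice an IFNa LV (livers 18 and 23), and the mouse of the IFNa + aCTLA4 group IFNa in combination with anti-CTLA-4 (liver 22). Mouse strain, age, sex, tumour line and the promoter of the vector are not given in the sources used here. The labels do not state that the livers came from separate mice, so the p-values below reflect variation among these samples, which may be technical.

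A beta chain gene is assembled in the thymus by joining a V, a D and a J segment. The V segment encodes the 2 loops that mostly touch the MHC molecule, and the CDR3 loop, which mostly touches the peptide, spans the end of V, the D segment, the bases added or trimmed at the joints and the start of J. CD8 T cells read peptides on MHC class I and CD4 T cells, including Foxp3-expressing regulatory T cells, read peptides on MHC class II. A cell that divides passes on its rearranged chain, so shares counted by clonotype describe how often a segment was used in separate rearrangements, and shares counted by cell barcode also carry the size of each clone.

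On mouse chromosome 6 (mm10; GENCODE vM21 annotation of the same assembly), the V segments run from Trbv1 (40891229 to 40891885) to Trbv30, which ends at 41281990. They are followed by Trbd1, the J1 cluster (Trbj1-1 starts at 41533864) and Trbc1, then Trbd2, the J2 cluster (Trbj2-1 starts at 41542754) and Trbc2. Trbv31 (41557691 to 41558452) lies beyond them on the minus strand. The annotation lists 35 Trbv genes, of which 22 are functional, and 21 of those 22 were found in contigs. The exception was Trbv21, with no productive contig and 19 unique molecular identifiers (UMIs) over all cells. Of 13 functional J segments, 12 were found, all but Trbj1-7. The contigs labelled TRBV10 match the germline sequence of Trbv4 (41059394 to 41059886), and 90.3% of them have a Trbv4 UMI in the same cell. The gene annotated as Trbv10 is a pseudogene with 0 UMIs. The joint label TRBV12-2+TRBV13-2 and the label TRBV13-2 both match Trbv13-2 (41121396 to 41121832). Labels are printed below as the receptor tables give them. Every J1 contig with a constant region call carried TRBC1 and every such J2 contig TRBC2, which is the order of the locus.

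The V segment supplies the first bases of the CDR3. The germline bases that the 10 V segments discussed below under CD8 and CD4 usage bring to it are shown 5′ to 3′, from the codon of the conserved cysteine to the end of the V segment, first the 5 that were more frequent among CD8 clonotypes and then the 5 that were less frequent:
TRBV12-1 and TRBV12-2: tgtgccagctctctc
TRBV29: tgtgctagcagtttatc
TRBV14: tgtgccagcagtttct
TRBV10: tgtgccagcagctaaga
TRBV20: tgtggtgctaggga
TRBV26: tgtgccagcagtctgtc
TRBV31: tgtgcctggagtctca
TRBV2: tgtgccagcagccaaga
TRBV15: tgtgccagcagtttagc
The TRBV12-1 and TRBV12-2 ends are identical. TRBV20 contributes the shortest of the ends shown, and its CDR3 averaged 38.7 nucleotides over 108 distinct clonotypes. The mean over all clonotypes of a liver ran from 41.5 to 41.9 nucleotides.

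The CDR3 of the largest clonotype of each liver is shown next, because each is the receptor chain carried by the most cells of its liver. Lower case marks bases that match the germline end of V or the germline start of J, and capitals mark the bases between them, which match neither end:
Control liver 11, TRBV5 with TRBJ2-7: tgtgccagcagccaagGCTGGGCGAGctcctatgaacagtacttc
Control liver 25, TRBV5 with TRBJ1-1: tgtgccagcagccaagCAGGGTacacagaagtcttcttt
Control liver 25, TRBV3 with TRBJ1-6: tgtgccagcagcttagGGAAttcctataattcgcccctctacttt
IFNa liver 18, TRBV16 with TRBJ2-7: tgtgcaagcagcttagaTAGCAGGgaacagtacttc
IFNa liver 18, TRBV12-2+TRBV13-2 with TRBJ2-2: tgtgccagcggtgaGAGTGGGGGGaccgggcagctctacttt
IFNa liver 23, TRBV16 with TRBJ2-7: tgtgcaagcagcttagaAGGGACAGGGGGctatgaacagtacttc
IFNa + aCTLA4 liver 22, TRBV13-3 with TRBJ2-1: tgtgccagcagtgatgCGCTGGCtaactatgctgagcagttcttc
Control liver 25 and IFNa liver 18 each have a tie for the largest.

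Depth differed widely among the livers. The expression matrices hold 863 to 9605 cells and 10464216 to 69856071 UMIs. TRB contigs were found in 791 and 124 barcodes of Control livers 11 and 25, in 824 and 1122 of IFNa livers 18 and 23, and in 3413 of IFNa + aCTLA4 liver 22. These are 13.9%, 14.4%, 13.1%, 20.1% and 35.5% of the cells. They gave 621, 116, 640, 678 and 1593 clonotypes, so 1 clonotype is worth 0.862% of Control liver 25 and 0.0628% of IFNa + aCTLA4 liver 22, and a segment with no clonotype can still hold up to 2.59% and 0.188% of these repertoires (3 counts of the total, counting error only). As a check of cell identity, 97.5 to 100% of TRB barcodes had a UMI of Cd3e, a subunit of the receptor complex, and 0.253 to 1.61% one of the hepatocyte gene Alb. Lyz2, a myeloid gene, had a UMI in 33% of TRB barcodes of Control liver 11 and in 12.9 to 17.7% of the other livers, and the part of such signal in the values below was not tested. A second productive TRB chain was present in 2.75 to 4.84% of TRB barcodes. The libraries share 402 cell barcodes in the expression matrices and 12 among TRB barcodes, and 0 of those 12 carried the same clonotype in both libraries.

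Over all T cells, V usage by clonotypes was spread over many segments, and TRBV12-2+TRBV13-2 had the highest share in 4 of 5 livers, with TRBV3 above it in IFNa liver 18 at 10.5%. TRBV12-2+TRBV13-2 made up 9.02% and 12.1% of clonotypes in Control livers 11 and 25, 7.34% and 11.7% in IFNa livers 18 and 23 and 10.9% in IFNa + aCTLA4 liver 22, with a mean of 10.2% ± 1.98 (SD, n = 5). TRBV19 followed at 7.61% ± 1.74 (SD, n = 5), TRBV3 at 6.86% ± 2.52, TRBV16 at 6.80% ± 1.30 and TRBV5 at 6.57% ± 0.852. The means of TRBV19, TRBV3, TRBV16 and TRBV5 lie closer together than the spread between livers, so no order among them can be read. At the low end, TRBV30 had 7 clonotypes in all, with 0 in Control liver 25 and IFNa liver 18.

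**Figure D1:**
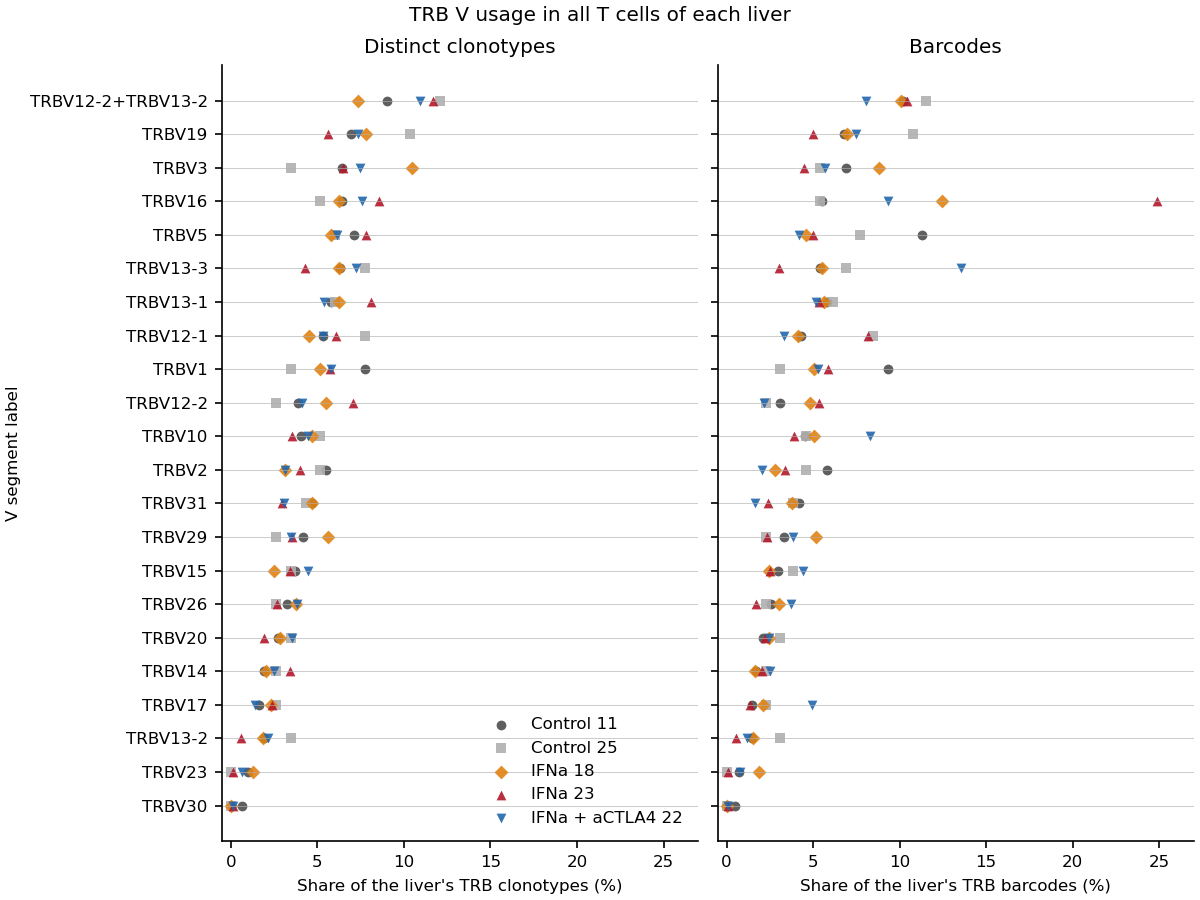
Share of each liver's TRB clonotypes (left panel) and TRB barcodes (right panel), in percent on the horizontal axes, for each V label on the vertical axis, with a point for each of the 5 livers coloured by group. By clonotypes TRBV12-2+TRBV13-2 lies between 7.34% and 12.1% and the groups are mostly interleaved, while by barcodes TRBV16 reaches 24.9% in IFNa liver 23 and TRBV13-3 13.6% in IFNa + aCTLA4 liver 22.

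Invariant natural killer T (iNKT) cells, which are common in mouse liver and read lipids on CD1d, use a fixed alpha chain with beta chains of Trbv13-2, Trbv29 or Trbv1. These 3 V genes were therefore followed in every liver. With both of its labels merged, Trbv13-2 took 11% and 15.5% of clonotypes in Control livers 11 and 25, 9.22% and 12.2% in IFNa livers 18 and 23 and 13.1% in IFNa + aCTLA4 liver 22. TRBV29 took 4.19%, 2.59%, 5.62%, 3.54% and 3.45% in the same order, and TRBV1 7.73%, 3.45%, 5.16%, 5.75% and 5.78%. For each of the 3 genes the Control and IFNa livers overlapped. IFNa + aCTLA4 liver 22 lay between the Control livers for each gene and outside the range of the IFNa livers. The iNKT alpha chain itself (TRAV11 with TRAJ18) was found in 94 TRB barcodes, whose beta chains were Trbv13-2 in 42, Trbv29 in 17, Trbv1 in 7 and another V gene in 36, with barcodes of 2 chains counted for each.

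TRBJ2-7 was the most used J segment in each liver, with 23.7% and 19.0% of clonotypes in Control livers 11 and 25, 21.2% and 26.8% in IFNa livers 18 and 23 and 19.6% in IFNa + aCTLA4 liver 22, a mean of 22.1% ± 3.22 (SD, n = 5). TRBJ2-5 had a mean of 11.5% ± 0.491 and TRBJ2-1 of 11.2% ± 0.173, and the range of TRBJ2-1 was only 11.1% to 11.5%. J2 segments together, which can join to either D segment, were used by 70.0% and 59.5% of clonotypes in the Control livers, 67.8% and 72.1% in the IFNa livers and 65.2% in IFNa + aCTLA4 liver 22. The IFNa mean was 70.0% ± 3.05 (SD, n = 2) and the Control mean 64.8% ± 7.47 (SD, n = 2), a difference of 5.20 percentage points whose groups overlap. The difference was 10.8 points by barcodes and -0.080 points without Control liver 25. A two-sided exact permutation test of the shares by clonotypes gave p = 0.667, and 0.333 is the smallest p this design allows.

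**Figure D2:**
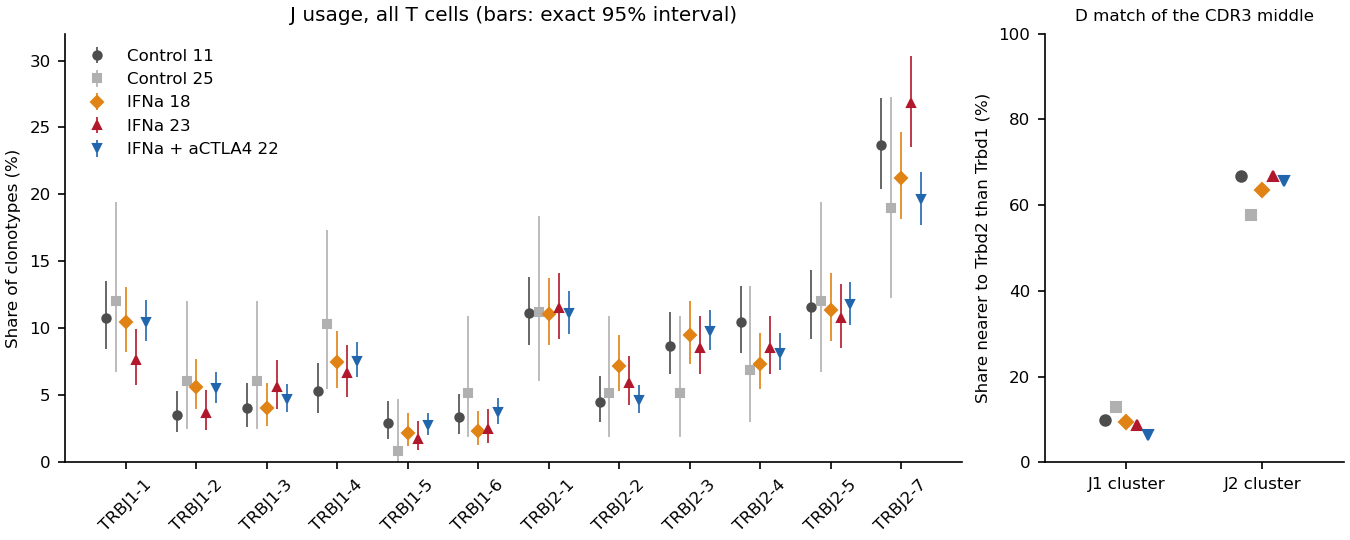
The left panel shows the share of TRB clonotypes (percent) that use each J segment in the 5 livers, with bars for the exact 95% binomial interval, and the right panel the share of J1 and J2 clonotypes whose longer D match is to Trbd2 rather than Trbd1. TRBJ2-7 leads in each liver at 19.0% to 26.8%, and the Trbd2 shares of 6.44% to 12.9% for J1 lie apart from those of 57.7% to 66.8% for J2.

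The D segment left a trace that followed the J cluster. The germline D segments are short and rich in G, and they are printed here because the receptor shared between livers below is built around them:
Trbd1, 6:41533201-41533212, plus strand: gggacagggggc
Trbd2, 6:41542163-41542176, plus strand: gggactgggggggc
The longest run of at least 5 bases shared with Trbd1 or Trbd2 was sought between the V and J ends of each CDR3. Where 1 of the 2 had the longer match, Trbd2 had it in 9.76% and 12.9% of J1 clonotypes in Control livers 11 and 25, 9.35% and 8.70% in IFNa livers 18 and 23 and 6.44% in IFNa + aCTLA4 liver 22. Among J2 clonotypes the Trbd2 shares were 66.8%, 57.7%, 63.6%, 66.8% and 65.5%. The J1 and J2 shares did not overlap in any liver. Trbd2 lies downstream of the J1 cluster, so J1 chains are normally formed with Trbd1, and a short match can be given to the wrong D segment. The bases between V and J had a median of 10 in every liver.

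Of the 264 possible pairs of labels, 255 occurred in at least 1 clonotype. Counts per liver were summed and set beside the count that the product of the 2 segments' shares gives, as a description with no test. TRBV16 with TRBJ2-7 had 92 clonotypes where the product gives 58.1, with clonotypes found in several livers counted in each, and TRBV12-2+TRBV13-2 with TRBJ2-7 had 89 where it gives 81.1. Other pairs lay further from the product. TRBV10 with TRBJ2-3 had 40 against 14.3 and TRBV26 with TRBJ1-3 18 against 5.91, while TRBV10 with TRBJ1-4 had 3 against 11.1. These pairs were chosen after their values were seen.

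T cells were split by the UMIs of the same barcode. Barcodes with Cd8a and neither Cd4 nor Foxp3 were called CD8, those with Cd4 and neither Cd8a nor Foxp3 conventional CD4, and those with Foxp3 and no Cd8a regulatory. CD8 barcodes made up 31.4% and 29.0% of TRB barcodes in Control livers 11 and 25, 35.0% and 45.5% in IFNa livers 18 and 23 and 54.2% in IFNa + aCTLA4 liver 22. Conventional CD4 barcodes made up 15.4 to 23.3%. Regulatory barcodes made up 26.4% and 28.2% in the Control livers, 18.6% and 14.3% in the IFNa livers and 5.80% in IFNa + aCTLA4 liver 22, and between 19.5% and 24.8% of barcodes stayed unassigned. Genes not used in the split were found mostly, but not only, where the labels place them. Cd8b1, the second CD8 chain, had a UMI in 90.2 to 97.2% of CD8 barcodes. It also had one in 3.7 to 8.55% of conventional CD4 and 7.19 to 19.4% of regulatory barcodes. Il2ra, the interleukin-2 receptor alpha chain, had one in 77.1 to 90.6% of regulatory and 14.5 to 30.6% of conventional CD4 barcodes. Cd40lg had one in 35.5 to 63.1% of conventional CD4, 0.806 to 5.56% of CD8 and 2.86 to 9.6% of regulatory barcodes. Ikzf2 had one in at least 91.4% of regulatory barcodes of each liver, but also in 22.2 to 54.4% of CD8 barcodes. Cd8a UMIs also occurred in 0.549 to 3.01% of B cells (Cd79a present, Cd3e and TRB absent) in 3 livers, in 0 of 169 in Control liver 25 and in 10.2% in IFNa + aCTLA4 liver 22. In that last liver 14 clonotypes were found in both CD8 and conventional CD4 barcodes (2.32% of its CD8 and 3.13% of its conventional CD4 clonotypes), against 0 in each of the other 4 livers. The part of such stray Cd8a UMIs in the values below was not tested.

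CD8 and conventional CD4 T cells used different V segments within the same livers. In Control 11, Control 25, IFNa 18, IFNa 23 and IFNa + aCTLA4 22 there were 188, 33, 228, 234 and 603 CD8 clonotypes. Conventional CD4 clonotypes numbered 153, 25, 174, 124 and 447 in the same order. The shares of Control liver 25, and the ranges that include them, thus rest on few clonotypes. In edgeR's quasi-likelihood test on clonotype counts, with the liver as a block and Benjamini-Hochberg adjustment over all segments tested, 10 of 33 segments (30.3%) differed at an adjusted p under 0.05, with 15.2% in each direction. All 10 were V segments, of 21 V segments tested. Of the 12 J segments 0 passed, and their log2 ratios of CD8 over CD4 ran from -0.44 to 0.38. The median log2 ratio over all 33 segments was -0.03. Shares sum to 100% within a liver, so a segment that takes more leaves less to the others.

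Trbv12-1 and Trbv12-2, closely related neighbours at 41113550 to 41114067 and 41118851 to 41119364, were both more frequent in CD8 cells. TRBV12-1 was used by 10.6% and 18.2% of CD8 clonotypes in Control livers 11 and 25, 8.33% and 7.26% in IFNa livers 18 and 23 and 6.97% in IFNa + aCTLA4 liver 22. Among conventional CD4 clonotypes it was used by 0.654%, 0%, 0%, 2.42% and 2.24%. The CD8 share was the higher in every liver and the 2 ranges did not overlap, with a log2 ratio of 2.39 ± 0.35 (SE), or 5.22-fold, and an edgeR adjusted p of 3.07e-08. TRBV12-2 was used by 5.32%, 6.06%, 7.46%, 8.55% and 5.97% of CD8 clonotypes and by 1.31%, 0%, 1.15%, 4.03% and 1.12% of conventional CD4 clonotypes, again without overlap (log2 ratio 2.04 ± 0.37, edgeR adjusted p = 6.51e-06). Their sequences are alike but can be told apart. Over the V part before the CDR3, all 292 TRBV12-1 contigs matched germline Trbv12-1 exactly and all 206 TRBV12-2 contigs matched Trbv12-2. A UMI of the labelled gene was present in the same cell for 99.7% and 100% of these contigs.

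TRBV29, TRBV10 and TRBV14 were the other V segments more frequent in CD8 cells. TRBV29 (41271394 to 41271881) was used by 7.45%, 3.03%, 10.5%, 5.13% and 4.48% of CD8 clonotypes and 2.61%, 0%, 1.72%, 1.61% and 0.895% of conventional CD4 clonotypes. Its ranges did not overlap, and the log2 ratio was 2.08 ± 0.39 (edgeR adjusted p = 8.31e-06). TRBV10 took 5.70 to 9.09% of CD8 and 0 to 3.36% of conventional CD4 clonotypes, again without overlap, with a log2 ratio of 1.29 ± 0.33 (edgeR adjusted p = 0.00104). TRBV14 (41135145 to 41135616) took 3.07 to 6.06% against 0 to 3.23%, ranges that overlap, with a log2 ratio of 1.33 ± 0.49 (edgeR adjusted p = 0.0259). Each of the 5 CD8-rich segments was higher in CD8 than in conventional CD4 cells in 5 of 5 livers. Control liver 25 counts among these with only 33 CD8 and 25 conventional CD4 clonotypes. TRBV14 passed the threshold in 2 of the 5 fits that left out a liver.

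The 5 segments that were less frequent in CD8 cells were TRBV20, TRBV26, TRBV31, TRBV2 and TRBV15. TRBV20 (41188273 to 41188977) was used by 1.06% and 3.03% of CD8 clonotypes in Control livers 11 and 25, 2.19% and 0.855% in IFNa livers 18 and 23 and 1.49% in IFNa + aCTLA4 liver 22, against 7.19%, 8.0%, 5.17%, 2.42% and 6.04% of conventional CD4 clonotypes. It was lower in CD8 cells in each liver, although the highest CD8 share exceeded the lowest CD4 share, with a log2 ratio of -1.84 ± 0.41 (edgeR adjusted p = 0.000173). TRBV26 (41227505 to 41227993) took 0 to 2.99% of CD8 and 3.23 to 6.04% of conventional CD4 clonotypes without overlap, with a log2 ratio of -1.35 ± 0.39 (edgeR adjusted p = 0.00446). TRBV31, TRBV2 and TRBV15 had log2 ratios of -1.07 ± 0.35, -1.06 ± 0.33 and -1.0 ± 0.35 (edgeR adjusted p = 0.0121, 0.00740 and 0.0175), with ranges that overlap. TRBV2 was lower in CD8 cells in 4 of 5 livers, with 2.63% of CD8 and 2.30% of conventional CD4 clonotypes in IFNa liver 18. TRBV2 and TRBV15 passed in 3 and TRBV31 in 4 of the 5 fits without a liver. Cells with Cd3e but no TRB contig were sorted by their top Trbv gene, without a test (468 CD8, 132 conventional CD4). There 7 of the 10 called V segments, and 9 of the 11 not called, lay on the same side as by clonotypes. The 11 include TRBV13-2 and TRBV12-2+TRBV13-2, which share the gene Trbv13-2 and enter with the same cells. Of the called, TRBV12-2 (mean 4.74% of CD8, 10.4% of conventional CD4 cells), TRBV20 (2.29%, 1.43%) and TRBV15 (1.45%, 1.35%) lay on the other side. These means weigh each liver equally, and Control liver 25 had 1 CD8 and 3 conventional CD4 such cells. Over all livers the CD8 and conventional CD4 cells were 15 and 5 for TRBV12-2, 7 and 1 for TRBV20 and 21 and 6 for TRBV15.

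**Figure D3:**
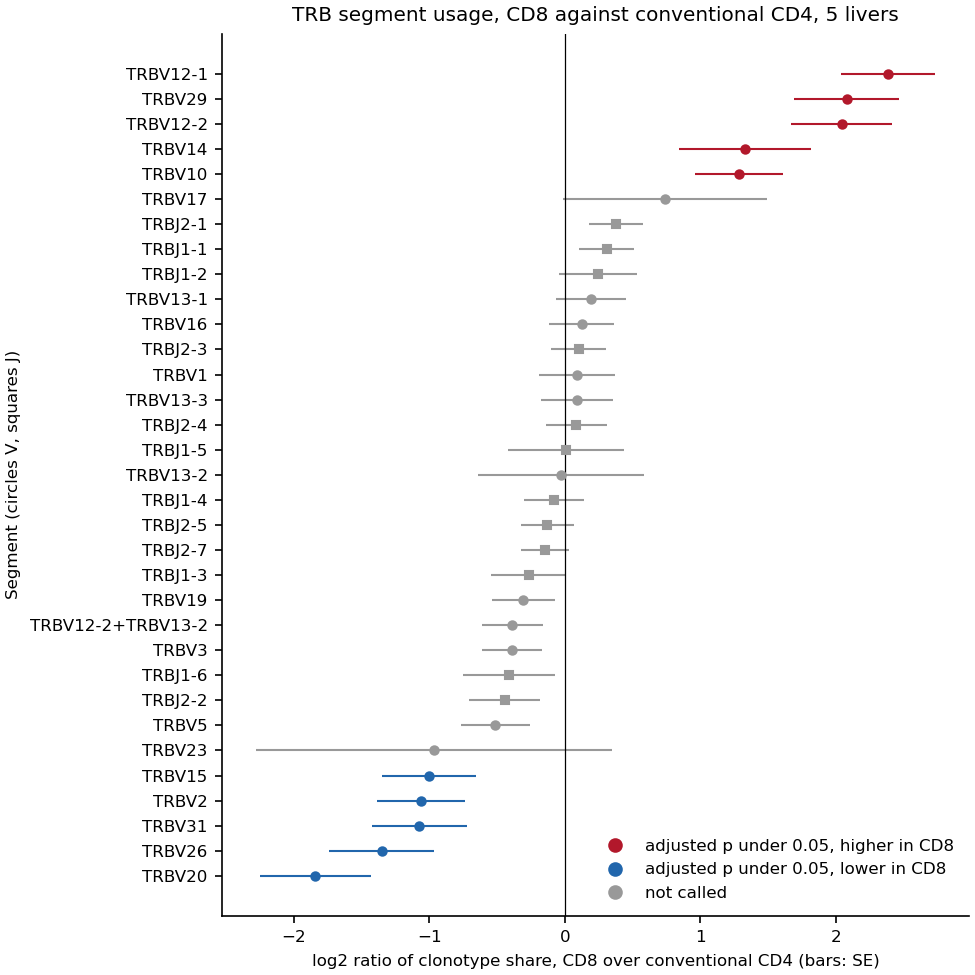
Log2 ratio of clonotype shares, CD8 over conventional CD4 (horizontal axis), for each tested segment (vertical axis), with bars for the standard error and the 10 segments past an adjusted p of 0.05 marked. TRBV12-1 at 2.39 and TRBV20 at -1.84 lie at the ends, and the J segments stay between -0.44 and 0.38.

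Summed over the 5 CD8-rich segments, the shares were 32.4%, 42.4%, 35.1%, 32.1% and 27.7% of CD8 clonotypes and 8.5%, 0%, 5.75%, 12.9% and 8.72% of conventional CD4 clonotypes. In regulatory cells the same 5 segments made up 11.9%, 3.23%, 17.9%, 16.5% and 10.3%. The 5 CD8-poor segments took 13.3%, 6.06%, 9.21%, 9.40% and 12.9% of CD8, 32.7%, 40.0%, 25.3%, 21.0% and 28% of conventional CD4 and 20.6%, 19.4%, 19.0%, 18.7% and 18.2% of regulatory clonotypes. These sums describe segments picked by the same CD8 and CD4 counts and carry no test. The regulatory shares were not used in the choice, and for both sets they lie between the other 2 in 5 of 5 livers. Segments chosen for being far apart in CD8 and CD4 cells favour such an order.

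Regulatory and conventional CD4 cells were compared directly. By clonotypes, 0 of 33 segments (0%) passed in edgeR, 2 had an unadjusted p under 0.05, and DESeq2 called 0. The 2 with the lowest p were TRBV12-2, with a log2 ratio of regulatory over conventional CD4 of 1.38 ± 0.46, and TRBV20, with -1.42 ± 0.49, each at an edgeR adjusted p of 0.150. By barcodes 2 of 33 (6.06%) passed in edgeR, TRBV20 at -2.17 (adjusted p = 0.0224) and TRBJ2-7 at 0.59 (adjusted p = 0.0161).

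The comparisons of treatment asked whether V or J usage differed among Control, IFNa and IFNa + aCTLA4 livers. By clonotypes over all T cells, 0 of 33 segments (0%) passed for IFNa against Control, for IFNa + aCTLA4 against Control and for IFNa + aCTLA4 against IFNa in edgeR. Unadjusted p was under 0.05 for 0, 0 and 1 segments, and DESeq2 called 0 in each. The smallest edgeR adjusted p values were 0.832, 0.992 and 0.773. Every fitted ratio lay within 2-fold, with log2 values from -0.85 to 0.80, from -0.78 to 0.49 and from -0.76 to 0.80, while the median standard errors of 0.40, 0.42 and 0.37 leave room for sizeable differences that these livers could not resolve. IFNa + aCTLA4 has 1 liver, which the fits assume to vary like the others.

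The segments with the largest ratios are given as measured values. TRBV13-2 was used by 1.93% and 3.45% of clonotypes in Control livers 11 and 25 and by 1.88% and 0.590% in IFNa livers 18 and 23, a log2 ratio of IFNa over Control of -0.85 ± 0.70, and TRBV12-2 by 3.86% and 2.59% against 5.47% and 7.08%, a ratio of 0.80 ± 0.40. With both labels of Trbv13-2 merged, the ratio was -0.19, and the Control and IFNa shares of the merged gene overlap. TRBV2 was at -0.60 ± 0.37, TRBJ1-6 at -0.59 ± 0.38, TRBJ2-2 at 0.50 ± 0.24 and TRBV3 at 0.55 ± 0.47, and the edgeR adjusted p was 0.832 for all 6. For each of the 6 labels the Control and IFNa livers did not overlap, but they were picked for the size of their ratio. With so few livers, the smallest p of a two-sided exact permutation test is 0.333, so such a separation cannot pass. Segments outside the 6 also showed no overlap. Examples are TRBV13-1 (5.80% and 6.03% in Control, 6.25% and 8.11% in IFNa) and TRBV15 (3.70% and 3.45%, 2.5% and 3.39%). TRBV13-3, TRBJ1-1 and TRBJ2-5 separated as well, and no other tested segment did. The separation is therefore not particular to the 6, and 0% of segments were called. For IFNa + aCTLA4 against Control, the lowest log2 ratios were those of TRBV2 at -0.78 ± 0.39, TRBV31 at -0.58 ± 0.40 and TRBV17 at -0.36 ± 0.69, and the highest those of TRBJ1-2 at 0.49 ± 0.34, TRBV3 at 0.37 ± 0.51 and TRBJ1-4 at 0.31 ± 0.26, each at an edgeR adjusted p of 0.992. For IFNa + aCTLA4 against IFNa they were TRBV17 at -0.76 ± 0.56, TRBV12-2 at -0.62 ± 0.37 and TRBJ2-2 at -0.49 ± 0.19, and TRBV13-2 at 0.80 ± 0.61 (0.26 with both labels merged), TRBJ1-6 at 0.63 ± 0.31 and TRBV15 at 0.59 ± 0.36. Both comparisons with IFNa + aCTLA4 share liver 22, and those with Control share both Control livers.

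Within the T cell groups the result was alike. For CD8 clonotypes, edgeR called 0 of 32 segments (0%) in each of the 3 treatment comparisons, with 0, 3 and 2 at an unadjusted p under 0.05 in the order given above. It called 0 of 31 (0%) in conventional CD4 cells, with 0, 0 and 0 at an unadjusted p under 0.05, and 0 of 29 (0%) in regulatory cells, with 1, 1 and 1. DESeq2 called 0 in all of these. The test of whether the IFNa ratio differed between CD8 and conventional CD4 cells called 0 of 33 (0%) in edgeR, with 1 at an unadjusted p under 0.05 and 0 in DESeq2.

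Shares by barcode differed more between livers than shares by clonotype, by an amount that varied with the pair of livers. The V usage of any pair of livers differed by 9.04 to 19.2% of clonotypes, the share that would have to change label to make the pair equal, and by 15.9 to 29.7% of barcodes. Control livers 11 and 25 hardly moved, from 15.6% by clonotypes to 16.3% by barcodes, while IFNa liver 23 and IFNa + aCTLA4 liver 22 went from 12.6% to 29.7%. Control liver 25 has only 116 clonotypes in 130 chains. Its distances thus carry more counting error, and its shares can differ little between the ways of counting. TRBV16 was carried by 5.54% and 5.38% of TRB chains by barcode in Control livers 11 and 25, 12.5% and 24.9% in IFNa livers 18 and 23 and 9.32% in IFNa + aCTLA4 liver 22. Both IFNa livers were above both Control livers, with a log2 ratio of IFNa over Control of 1.77 ± 0.53 and an edgeR adjusted p of 0.170. By clonotypes the same segment had 6.44%, 5.17%, 6.25%, 8.55% and 7.60%.

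Single expanded clones held much of the shares by barcode that stand out. In IFNa liver 23 a single TRBV16-TRBJ2-7 clonotype filled 169 barcodes, 163 of them CD8, which is 14.5% of its TRB chains and 58.5% of those with TRBV16. In Control liver 11 the largest clonotype, TRBV5 with TRBJ2-7, filled 40 barcodes, 37 of them CD8, or 43.5% of the TRBV5 chains there. In IFNa + aCTLA4 liver 22 a TRBV13-3-TRBJ2-1 clonotype filled 258 barcodes, 240 of them CD8 (54.2% of TRBV13-3 chains), and a TRBV17-TRBJ2-1 clonotype 151, 130 of them CD8 (87.3% of TRBV17 chains). The largest clonotypes of the remaining livers were mostly regulatory. In IFNa liver 18 both had 32 barcodes, of which 23 of the TRBV16-TRBJ2-7 clonotype and 27 of the TRBV12-2+TRBV13-2-TRBJ2-2 clonotype were regulatory, and in Control liver 25 both had 4.

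**Figure D4:**
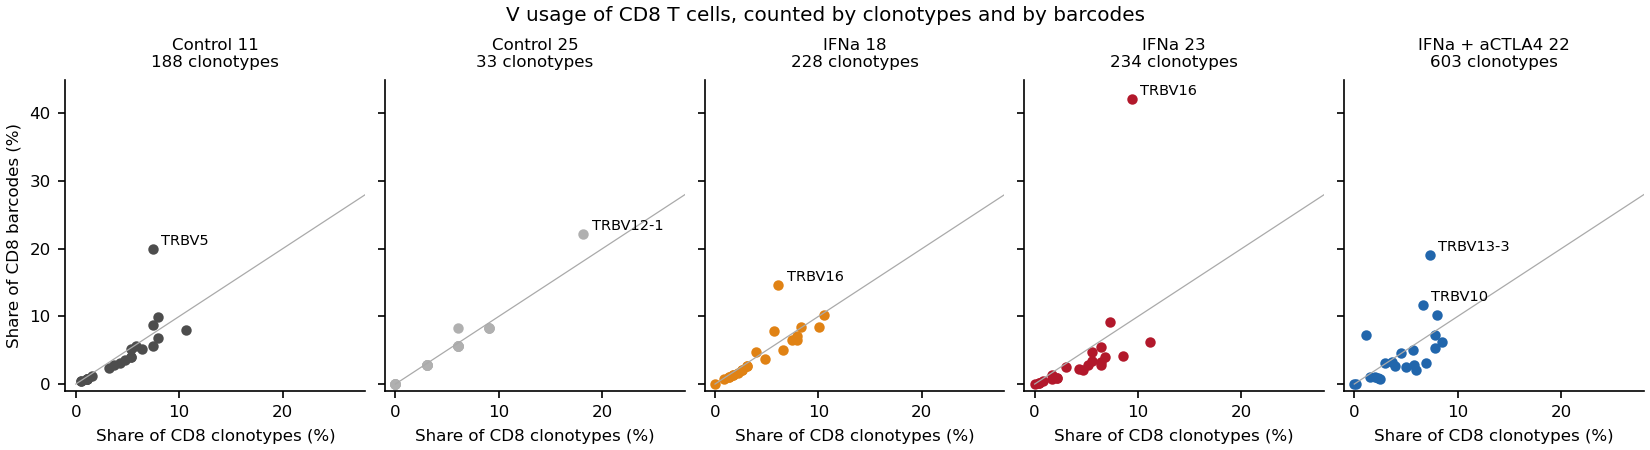
Share of CD8 barcodes (percent, vertical axis) against share of CD8 clonotypes (percent, horizontal axis), with a point for each V label, a panel for each of the 5 livers and a grey line where both shares are equal. TRBV16 in IFNa liver 23, at 9.40% of clonotypes and 42.1% of barcodes, and TRBV13-3 in IFNa + aCTLA4 liver 22, at 7.30% and 19.1%, lie far above the line.

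Among CD8 cells the same departures were larger. TRBV16 took 6.77%, 0%, 14.6%, 42.1% and 10.2% of CD8 chains by barcode, in the order Control 11, Control 25, IFNa 18, IFNa 23 and IFNa + aCTLA4 22, and 7.98%, 0%, 6.14%, 9.40% and 7.96% of CD8 clonotypes. TRBV13-3 took 2.79%, 2.78%, 5.10%, 3.43% and 19.1% by barcode and 3.72%, 3.03%, 6.58%, 5.56% and 7.30% by clonotype. TRBV5 took 19.9%, 5.56%, 2.72%, 2.86% and 2.50% by barcode and 7.45%, 6.06%, 3.07%, 6.41% and 4.98% by clonotype. For each of these V segments the highest share by barcode was in a liver whose largest clonotype uses it. The segments were named for those clonotypes, so this is a description only. A tied largest clonotype, mostly of regulatory cells, also uses TRBV5 in Control liver 25 and TRBV16 in IFNa liver 18.

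By barcodes, edgeR called 4 of 33 segments (12.1%) for IFNa + aCTLA4 against IFNa over all T cells. TRBV13-3 had a log2 ratio of 1.69 ± 0.40 (edgeR adjusted p = 0.0360), TRBJ2-1 of 1.18 ± 0.25 (0.0360), TRBV17 of 1.52 ± 0.38 (0.0362) and TRBV12-2 of -1.25 ± 0.29 (0.0360). Without the largest clonotype of each liver, TRBV13-3 was at 0.51 (edgeR adjusted p = 0.476) and TRBJ2-1 at 0.51 (0.124), while TRBV17 at 1.46 and TRBV12-2 at -1.31 stayed past the threshold (0.0110 each). That setting removed only the TRBV13-3 clonotype from IFNa + aCTLA4 liver 22. It kept the TRBV17-TRBJ2-1 clonotype of 151 barcodes, or 87.3% of the TRBV17 chains there. The part of that clonotype in the TRBV17 call was therefore not tested. TRBV17 by clonotypes had the opposite sign, -0.76 ± 0.56. When each Control or IFNa liver was left out in turn, TRBV13-3, TRBV17 and TRBV12-2 passed in 2 of 4 fits and TRBJ2-1 in 0 of 4. In CD8 cells edgeR called 1 of 32 (3.12%) for IFNa against Control, TRBV5 at -2.43 ± 0.69 (adjusted p = 0.0320), which was -0.77 (adjusted p = 0.491) without the largest clonotype of each liver and passed in 0 of 5 fits without a liver. It also called 1 of 32 (3.12%) for IFNa + aCTLA4 against IFNa, TRBV17 at 2.35 ± 0.66 (edgeR adjusted p = 0.0309), which passed in 0 of 4 such fits. For CD8 against conventional CD4, 6 of 33 (18.2%) passed by barcodes, all of them among the 10 called by clonotypes. TRBV12-1, TRBV12-2, TRBV14 and TRBV2 did not pass there. This count by barcodes was 2 without IFNa liver 18 and 3 without Control liver 25.

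Few clonotypes were found in more than 1 liver. Of 3636 clonotypes, 10 (0.275%) occurred in at least 2 livers, 8 of them in 2 and 2 in 3. The receptor with the most barcodes among those shared combined TRBV16 (41151740 to 41152230) with TRBJ2-7 and 1 CDR3 amino acid sequence of 15 residues, encoded by 6 nucleotide variants. It was chosen after its values were seen. The variants are shown with capitals for the bases that match neither the V nor the J end, because they show separate rearrangements of 1 protein sequence:
variant 1, 182 barcodes in IFNa livers 18 and 23: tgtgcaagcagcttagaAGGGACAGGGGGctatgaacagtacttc
variant 2, 78 barcodes in IFNa + aCTLA4 liver 22: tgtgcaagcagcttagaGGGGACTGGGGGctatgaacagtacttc
variant 3, 29 barcodes in IFNa livers 18 and 23 and IFNa + aCTLA4 liver 22: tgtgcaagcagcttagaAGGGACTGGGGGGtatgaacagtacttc
variant 4, 18 barcodes in IFNa liver 23: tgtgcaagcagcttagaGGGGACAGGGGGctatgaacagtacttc
variant 5, 8 barcodes in IFNa liver 23: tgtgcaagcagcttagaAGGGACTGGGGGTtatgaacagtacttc
variant 6, 4 barcodes in Control liver 11: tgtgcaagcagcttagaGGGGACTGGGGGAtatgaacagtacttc
All 6 keep the complete germline V end. Variants 1 and 4 share a run of 11 bases with Trbd1 and the others a run of 11 or 12 bases with Trbd2, so the same amino acids were encoded with a match to Trbd1 in some variants and to Trbd2 in others. No 2 livers of different groups shared variant 1, 2, 4, 5 or 6, and variant 3 was the only one found in both an IFNa liver and the IFNa + aCTLA4 liver.

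This receptor was carried by 319 barcodes, of which 304 were CD8, 1 conventional CD4, 0 regulatory and 14 unassigned. It was found in 4 and 0 barcodes of Control livers 11 and 25, 29 and 199 of IFNa livers 18 and 23 and 87 of IFNa + aCTLA4 liver 22. Counting only CD8 barcodes, it was carried by 3 of 248 in Control liver 11, 0 of 36 in Control liver 25, 29 of 288 in IFNa liver 18, 192 of 511 in IFNa liver 23 and 80 of 1851 in IFNa + aCTLA4 liver 22. These shares are 1.21% (95% exact binomial interval 0.250 to 3.49%) in Control liver 11, none in Control liver 25, where 0 counts allow up to 8.33%, 10.1% (6.85 to 14.1%) in IFNa liver 18, 37.6% (33.4 to 41.9%) in IFNa liver 23 and 4.32% (3.44 to 5.35%) in IFNa + aCTLA4 liver 22. Both IFNa livers were above Control liver 11, and the limit of Control liver 25 does not separate it from the IFNa + aCTLA4 liver or from the lower bound of IFNa liver 18. The intervals cover counting error only, since cells of 1 clone are not independent.

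**Figure D5:**
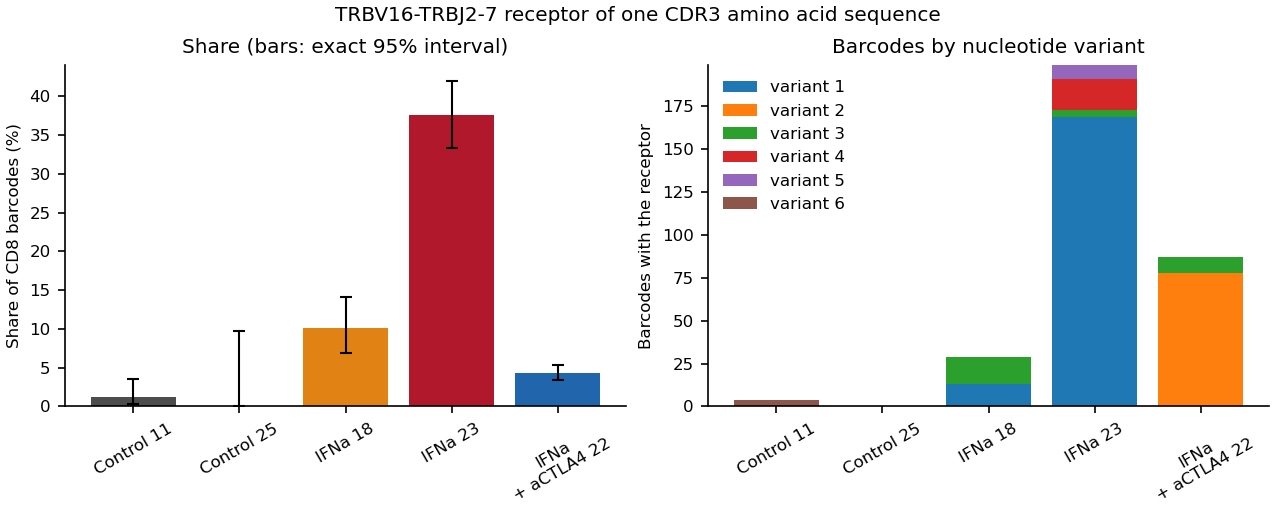
The TRBV16-TRBJ2-7 receptor in the 5 livers, as its share of CD8 barcodes in percent (left panel, bars for the exact 95% binomial interval) and as all barcodes with it, stacked by nucleotide variant (right panel). IFNa liver 23 holds 199 barcodes, of which variant 1 makes up 169, and Control liver 25 holds 0.

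The alpha chains beside this beta chain were of 11 V and J pairs, and the J segment most often among them was TRAJ22, picked here after the values were seen. Among barcodes of the receptor with an alpha contig, TRAJ22 was present in 2 of 2 in Control liver 11, 15 of 29 in IFNa liver 18, 193 of 193 in IFNa liver 23 and 79 of 81 in IFNa + aCTLA4 liver 22. IFNa liver 18 differed from the rest, since the main alpha chain there was TRAV10N with TRAJ17 for variant 1 (11 of 13 barcodes) and TRAV7-4 with TRAJ24 for variant 3 (12 of 16). In the other TRB barcodes TRAJ22 was present in 5.64%, 6.82%, 8.12% and 14.6% of the same livers. TRAV14D-1 with TRAJ22 was found in 164 barcodes of IFNa liver 23, all with 1 alpha CDR3, and TRAV7-4 with TRAJ22 in 112 barcodes over IFNa livers 18 and 23 and IFNa + aCTLA4 liver 22. Mki67, a gene of dividing cells, had a UMI in 0% of the receptor's barcodes in Control liver 11, which are only 4. In IFNa liver 18 the share was 31.0% of 29, in IFNa liver 23 24.1% of 199 and in IFNa + aCTLA4 liver 22 19.5% of 87. With 4 barcodes Control liver 11 cannot be set against the others. The Mki67 share of the other CD8 barcodes is not given here, so the values are not particular to this receptor.

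A regulatory receptor was shared in the same manner on a smaller scale. It combined TRBV19 (41178375 to 41179048) with TRBJ2-7 and a CDR3 of 10 residues, encoded by 4 variants:
variant 1, 7 barcodes: tgtgccagcagtaGGtatgaacagtacttc
variant 2, 3 barcodes: tgtgccagcagCCGAtatgaacagtacttc
variant 3, 2 barcodes: tgtgccagcagtCGGtatgaacagtacttc
variant 4, 2 barcodes: tgtgccagcagtaGAtatgaacagtacttc
It was found in 5 and 2 barcodes of Control livers 11 and 25, 0 and 3 of IFNa livers 18 and 23 and 4 of IFNa + aCTLA4 liver 22, and 13 of its 14 barcodes were regulatory. Its capitals hold only a few bases, and variant 1 occurred in 3 livers.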

How the data were processed

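Single-cell expression and receptor libraries (10x Genomics) of 5 livers were used. The authors deposited UMI counts per gene and cell, and receptor tables with read counts and UMI counts per contig. They were made with Cell Ranger 7.0.1 against mm10, per the submitters' processing notes. Segments, clonotypes and barcodes were counted from these with Python 3.11.15 and pandas 2.3.3. A barcode with 2 chains counts for each. No doublet caller was run, and barcodes with exactly 1 TRB contig served as an alternative.

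Clonotype counts per segment and liver were tested with edgeR 4.0.16 (R 4.3.3) by its quasi-likelihood test, the total number of clonotypes as library size. Segments needed at least 10 clonotypes over the libraries and libraries at least 20. P-values were adjusted over V and J segments together (Benjamini-Hochberg, threshold 0.05). CD8, conventional CD4 and regulatory cells were compared with the liver as a block, since they come from the same liver. Treatments were compared between livers. The tests were tested on simulated data. Alternatives were DESeq2 1.42.0, other ways of counting, and each liver left out.

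Named with values are segments past the threshold, the 5 most used V and 3 most used J segments, the V genes of iNKT cells, the 3 segments with the largest ratio each way per treatment comparison, and those of the largest clonotypes. Members and lists were chosen with earlier results of these data known. Germline sequences come from the GENCODE vM21 transcripts, and positions are 1-based. Of the 6463 contigs, 6459 matched a germline V and 6459 a germline J segment exactly.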

Additional observations from a re-analysis of the deposited data

Results flagged for a closer look

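Trbv24 (chromosome 6, 41218091 to 41218557), annotated as a pseudogene, had 288 UMIs over all cells of the 5 livers and no productive contig, and it stands here because this signal lies outside the receptor tables. A Trbv24 UMI was present in 1.64% and 0.806% of TRB barcodes in Control livers 11 and 25, 2.55% and 1.16% in IFNa livers 18 and 23 and 1.99% in IFNa + aCTLA4 liver 22. Among the other cells the shares were 0.142%, 0.135%, 0.0183%, 0.157% and 0.242%. Of the 117 TRB contigs in barcodes with such a UMI, 30 carried the label TRBV12-2+TRBV13-2, or 5.10% of the 588 contigs with that label. For the label TRBV13-2 it was 4 of 76 (5.26%). Among the other labels with such contigs the share ran from 0.474% (TRBV10) to 3.0% (TRBV26).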

How the results depend on the processing

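For the 10 V segments called between CD8 and conventional CD4 clonotypes, 153 of 170 recomputed values stayed past the threshold with the same direction, 17 lost the call and 0 reversed. The count of 10 became 6 by barcodes and 6 with DESeq2 (which kept TRBV12-1, TRBV12-2, TRBV29, TRBV14, TRBV10 and TRBV20), and 7 to 10 when a liver was left out, with the 7 obtained without IFNa replicate 23. Without the liver as a replicate block it was 10, with the same 10 segments. Counting barcodes moved other counts of calls from 0 to 4 for IFNa + aCTLA4 against IFNa over all T cells, to 1 for IFNa against Control and to 1 for IFNa + aCTLA4 against IFNa in CD8 cells, and to 2 for regulatory against conventional CD4. That last count by clonotypes was 0 to 1 with a liver left out, the 1 without IFNa + aCTLA4 replicate 22. TRBV17 for IFNa + aCTLA4 against IFNa reversed from -0.76 to 1.52 by barcodes. By barcodes the CD8 against conventional CD4 count was 2 without IFNa replicate 18 and 3 without Control replicate 25, and IFNa + aCTLA4 against Control over all T cells went from 0 to 8 without the shared TRBV16-TRBJ2-7 receptor. The cause of these changes was not tested. The IFNa minus Control difference in J2 share, 5.20 points, was 10.8 by barcodes and -0.080 to 10.5 with a liver left out, the lowest without Control replicate 25. Control liver 25, with 116 clonotypes, sets the depth limit for Control, and IFNa + aCTLA4 rests on 1 liver, so small treatment differences could not be resolved.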

Other observations

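Regulatory V usage differed between livers by both ways of counting. TRBV12-2+TRBV13-2 took 15.1% and 16.1% of regulatory clonotypes in Control livers 11 and 25, 8.33% and 6.59% in IFNa livers 18 and 23 and 18.2% in IFNa + aCTLA4 liver 22, and by barcodes 20.6%, 15%, 24.1%, 10.1% and 21.7% of chains in the same order. The widest gap between the counts was in IFNa liver 18, with 38 chains over 7 clonotypes, and in Control liver 25 the shares rest on 6 chains over 5 clonotypes. TRBV1 took 6.35%, 0%, 5.95%, 13.2% and 3.64% of clonotypes and 10.3%, 0%, 5.06%, 19.6% and 4.83% of chains by barcode. IFNa liver 23 held the highest TRBV1 share and the lowest TRBV12-2+TRBV13-2 share by both counts, and 0 of 29 segments (0%) were called by edgeR in any treatment comparison of regulatory clonotypes, with 1, 1 and 1 at an unadjusted p under 0.05 and 0 by DESeq2.

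By CDR3 amino acids, 30 of 3584 clonotypes occurred in at least 2 livers, 24 of them in 2, 4 in 3 and 2 in 4, against 10 of 3636 by nucleotides. Conventional CD4 and regulatory cells of 1 liver shared 7 and 0 clonotypes in Control livers 11 and 25, 10 and 9 in IFNa livers 18 and 23, and 16 in IFNa + aCTLA4 liver 22.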
